A study of Mus musculus with 27 samples.

Results

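The untreated mature 3T3-L1 adipocyte is described here by the absolute log2 levels of 18781 genes on 3 arrays, of 27 arrays in the series. The members are the 3 arrays labelled as adipocytes without treatment, and no other array was compared with them. 3T3-L1 is a mouse fibroblast-like line, grown here in 10% fetal bovine serum, that turns into lipid-laden fat cells when confluent cultures receive a hormone mixture. The cells were differentiated with 1 µM dexamethasone, 10 µg/ml insulin and 0.5 mM isobutylmethylxanthine for 2 days, then insulin for 2 days, and then growth medium alone. They were harvested at time 0, before any rosiglitazone, the PPARγ ligand given to the rest of the series. The series' design text also speaks of cells given DMSO, the solvent of the drug, but these arrays carry the label of no treatment and are taken as untreated. The differentiation steps were shared by all 3 arrays, and the labels give neither the day of harvest nor the share of cells that had differentiated. They also do not state whether the 3 replicates were separate cultures, so the spread between them may be technical.

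White adipocytes store fatty acids as triglyceride in a single large lipid droplet and release them by lipolysis. They also secrete hormones such as adiponectin and leptin. The nuclear receptor PPARγ and the factor C/EBPα drive the change from preadipocyte to fat cell and keep the fat genes on. Brown and beige adipocytes share most of that programme but also burn fuel for heat through the mitochondrial uncoupling protein UCP1.

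RNA was hybridised to Affymetrix Mouse Gene 1.1 ST arrays, and each value is a log2 intensity per probe set, so a difference of 1 is a doubling of signal. Values in the untreated arrays ran from 1.67 to 13.11. Intensity depends on how well each probe set binds as well as on the amount of RNA, so the order given here is an order of intensities and not of molecules. Whether the highest signals were compressed was not tested. Where a gene had several probe sets, the brightest on average over all 27 arrays stands for it. With 1 group of 3 arrays, precision is limited by that number.

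Gene means ran from 1.94 to 13.07, with a median of 4.80, a 90th percentile of 8.95 and a 99th percentile of 11.11. A gene is called high here where it lay in the top 10% of genes in each of the 3 arrays, which was above 8.95, 8.96 and 8.94 in replicates 1, 2 and 3. Of all genes 1781 (9.48%) were high. A gene is called near the floor where it lay at or under the 95th percentile of 1191 olfactory, vomeronasal and taste receptor genes in each array, which was 3.18, 3.22 and 3.26. These receptors detect odours, pheromones and tastes in sensory organs, and their genes had a median level of 2.52 here. Near the floor lay 5041 genes (26.8%), or 3931 (22.3%) of those that are not receptors of the reference set. Below the median gene of each of the 3 arrays lay 9234 genes (49.2%), a share that is fixed near this value by its definition. A place near the floor says that the signal was no higher than for most sensory receptors, not that RNA was absent.

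**Figure D1:**
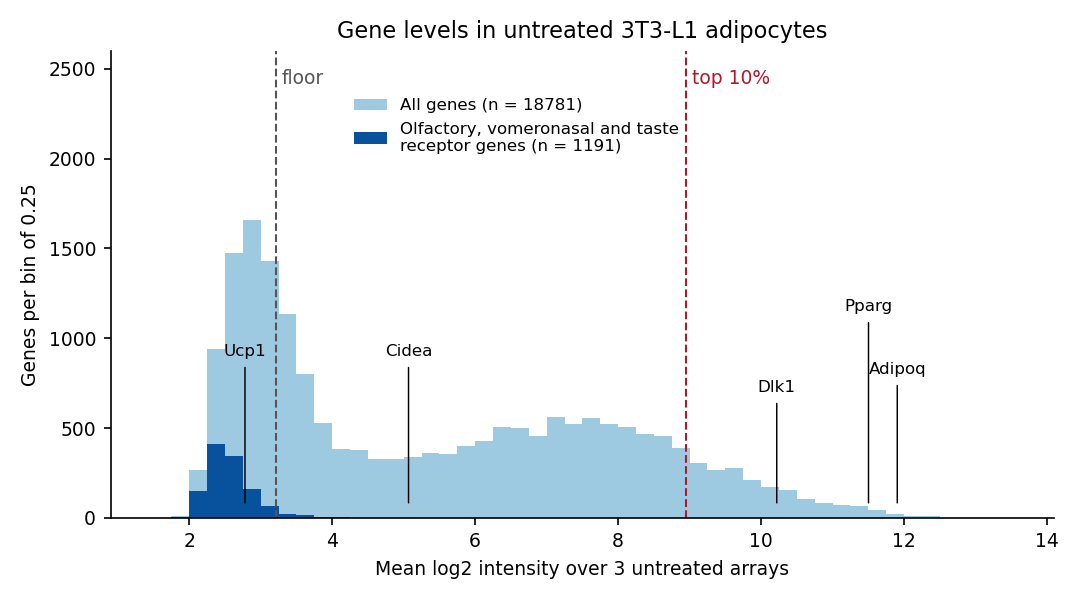
Number of genes per bin of 0.25 against the mean log2 intensity over the 3 untreated arrays, for all 18781 genes (light) and the 1191 sensory receptor genes (dark). The dashed lines mark the mean floor (3.22) and the mean threshold of the top 10% (8.95), and Ucp1 lies among the receptors while Pparg and Adipoq lie in the far right tail.

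The labelled cell type was checked first on its defining markers. Lpl encodes lipoprotein lipase, which frees fatty acids from circulating triglyceride, and its level was 12.25, 12.19 and 12.24 in replicates 1, 2 and 3. Adipoq, the gene of adiponectin, a hormone made by fat cells, was at 11.94, 11.92 and 11.86. Pparg was at 11.49, 11.52 and 11.51, and Fabp4, the fatty acid carrier of the adipocyte cytoplasm, at 11.46, 11.41 and 11.47. All 4 lay above 11, a level reached by 225 genes, and the values of each were within 0.1 of each other. Of the 18781 genes, Pparg ranked 86 and Fabp4 ranked 103.

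The sequences just upstream of these genes are shown because the text returns to their base composition. Each run is the 250 bases before an annotated transcription start in RefSeq (GRCm38.p6), written 5′ to 3′ on the gene's strand. Capitals mark a match to TTGCNNAA, a simplified form of the C/EBP site, on either strand. Retn encodes resistin, a secreted adipocyte protein, and Plin1 encodes perilipin 1, which coats the lipid droplet. The run of Pparg belongs to the downstream-most of its 3 listed starts. Ucp1 is added as a fat gene near the floor.
Adipoq chr16:23146286-23146535, plus strand: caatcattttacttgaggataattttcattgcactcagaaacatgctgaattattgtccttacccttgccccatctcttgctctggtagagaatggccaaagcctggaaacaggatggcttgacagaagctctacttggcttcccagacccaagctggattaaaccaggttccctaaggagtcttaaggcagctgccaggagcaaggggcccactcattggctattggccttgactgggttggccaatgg
Retn chr8:3655520-3655769, plus strand: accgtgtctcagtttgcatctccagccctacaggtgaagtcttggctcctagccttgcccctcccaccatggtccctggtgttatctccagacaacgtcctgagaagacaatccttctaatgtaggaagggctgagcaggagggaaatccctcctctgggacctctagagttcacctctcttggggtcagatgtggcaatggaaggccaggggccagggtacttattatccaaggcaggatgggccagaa
Plin1 chr7:79732777-79733026, minus strand: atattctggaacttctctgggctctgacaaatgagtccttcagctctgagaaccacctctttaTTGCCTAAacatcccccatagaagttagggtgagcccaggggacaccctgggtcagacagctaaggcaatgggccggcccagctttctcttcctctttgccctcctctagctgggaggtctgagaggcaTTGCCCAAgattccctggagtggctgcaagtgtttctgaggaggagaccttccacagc
Pparg chr6:115421816-115422065, plus strand: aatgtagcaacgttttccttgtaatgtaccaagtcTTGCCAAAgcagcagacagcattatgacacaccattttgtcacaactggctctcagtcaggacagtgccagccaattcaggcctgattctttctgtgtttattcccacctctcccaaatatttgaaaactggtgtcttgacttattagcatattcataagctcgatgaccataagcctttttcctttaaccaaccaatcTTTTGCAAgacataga
Ucp1 chr8:83290098-83290347, plus strand: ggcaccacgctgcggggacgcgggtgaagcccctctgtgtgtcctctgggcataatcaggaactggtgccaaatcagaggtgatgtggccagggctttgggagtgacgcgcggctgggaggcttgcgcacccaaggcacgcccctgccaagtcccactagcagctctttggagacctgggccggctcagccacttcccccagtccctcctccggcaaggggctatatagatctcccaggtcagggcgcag

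The Adipoq run held no CpG, its observed over expected CpG ratio was 0, and its GC share was 48.8%. Those of Retn and Plin1 had CpG ratios of 0.11 and 0.055, and the Pparg run shown 0.20. The other Pparg starts had ratios of 0.90 and 0.51, so its starts are not alike in CpG content. The Ucp1 run had a ratio of 0.46. Over the 1836 starts of high genes the median ratio was 0.77, and 9.26% of those starts lay below 0.3. Over the 18110 starts of all measured genes the median was 0.58, and 29.0% lay below 0.3. Near-floor genes had a median of 0.22. A start was listed for 14 of the 19 measured adipocyte markers (73.7%), too few to describe the list, and Fabp4 and Lpl were among those without one. Of the 19 starts that were listed, 12 lay below 0.3, but some genes hold several of them. Those above 0.3 included Cebpa at 0.80, a Lipe start at 0.73 and Pnpla2 at 0.48. No comparison of the list with other genes is drawn from these starts. TTGCNNAA occurred in 9.56% of all 32851 starts in the table, in 8.81% of those of measured genes and in 7.35% of those of high genes. The Plin1 and Pparg runs each held 2 matches, and the other runs shown held none. TATAAA, searched on both strands, was found in 12.4% of all starts, in 10.7% of those of measured genes and in none of the 5 runs shown. A Pparg start that is not shown had a TATAAA match 29 to 24 bases upstream, on the opposite strand. A match is a description of letters in a window and not a site of binding.

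The 30 genes with the highest means came from a few kinds of gene. By annotation 26 were protein coding, 1 was ribosomal RNA, 1 was a small nuclear RNA and 2 were transcribed pseudogenes. Rn28s1, a ribosomal RNA gene, had the highest mean at 13.07 ± 0.06 (SD, n = 3), and Rn7sk, a small nuclear RNA that restrains transcription elongation, stood at 12.61 ± 0.03. The pseudogenes Gm12070 at 12.32 and Gm6981 at 12.27 were also in the 30. Probe sets of a pseudogene can share bases with its parent gene, so these levels are uncertain.

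Several of the 30 are known from energy metabolism, a grouping made after the genes were seen. Gapdh, a glycolytic enzyme, was at 12.90, 12.86 and 12.81 and ranked 2. Ldha, which turns pyruvate into lactate, and Aldoa, the aldolase of glycolysis, were there as well. Atp5d and Atp5b, subunits of the ATP synthase, Cox6c of cytochrome oxidase, Ndufs7 of complex I and Slc25a5, the ADP/ATP carrier of the mitochondrial membrane, were others. Translation contributed Eef1a1 and Eef2, the elongation factors, and 5 ribosomal protein genes, Rpl21, Rpl39, Rps6, Rplp0 and Rplp1. Sod1, which removes superoxide, Fth1, a subunit of the iron store ferritin, Actb, cytoplasmic actin, Lgals1, a secreted lectin, and Ero1a, an oxidase of the endoplasmic reticulum, were the remaining members outside lipid metabolism.

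The fat genes of the 30 were Scd1, Lpl, Scd2, Gpd1, Adipoq and Cidec. Scd1, a desaturase that makes oleate, was at 12.39, 12.37 and 12.42 and ranked 4, and its relative Scd2 was at 12.09, 12.09 and 12.07. Gpd1, which makes glycerol 3-phosphate for triglyceride, was at 12.04, 12.00 and 11.97. Cidec, which fuses and enlarges lipid droplets, was at 11.88, 11.91 and 11.79. Retn followed at rank 31. Some of the housekeeping genes in the 30 rest on 1 of several unlike probe sets, as the lowest set of Fth1 averaged 5.53 and that of Eef2 7.07, whereas the 17 sets of Gapdh all averaged 11.45 or more.

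Of the 19 adipocyte markers measured, 17 (89.5%) were high against 9.48% of all genes, 0 were near the floor, and the median was 11.33. In the first 100 genes there were 7 of them. Cfd, also on the list, was not analysed here. Plin1 was at 11.60, 11.56 and 11.52. Pnpla2, the adipose triglyceride lipase, was at 11.40, 11.45 and 11.34, and Lipe, the hormone-sensitive lipase, at 11.39, 11.33 and 11.27. Cd36, a fatty acid transporter, was at 11.03, 10.89 and 10.89. Slc2a4, the insulin-responsive glucose transporter, was at 10.06, 10.15 and 10.08, and Aqp7, the glycerol channel, at 10.18, 10.18 and 10.06. Cebpa, the factor that acts beside PPARγ, was at 9.83, 9.70 and 9.67. Thrsp, a lipogenic nuclear protein, Mrap, a partner of the melanocortin receptors, and Adig, an adipocyte membrane protein, were the other high members between 9.41 and 10.22.

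The 2 markers outside the band were Pck1 and Lep. Pck1, which serves glyceroneogenesis in fat, was at 8.43, 8.78 and 8.64, under the threshold in all arrays. Lep, the gene of leptin, was at 6.02, 5.55 and 5.25, above the median gene in each array, with an SD of 0.39 against a median SD of 0.056 over the list. Lep was highest in replicate 1, as were 10 of the 19 markers (52.6%), against 35.1% of all genes. The share highest in replicate 1 was 54.5% for S phase genes and 17.4% for brown and beige genes. The markers' median deviation from their own means in replicate 1 was only 0.03. In replicate 3, 3 markers (15.8%) were highest, against 31.7% of all genes.

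**Figure D2:**
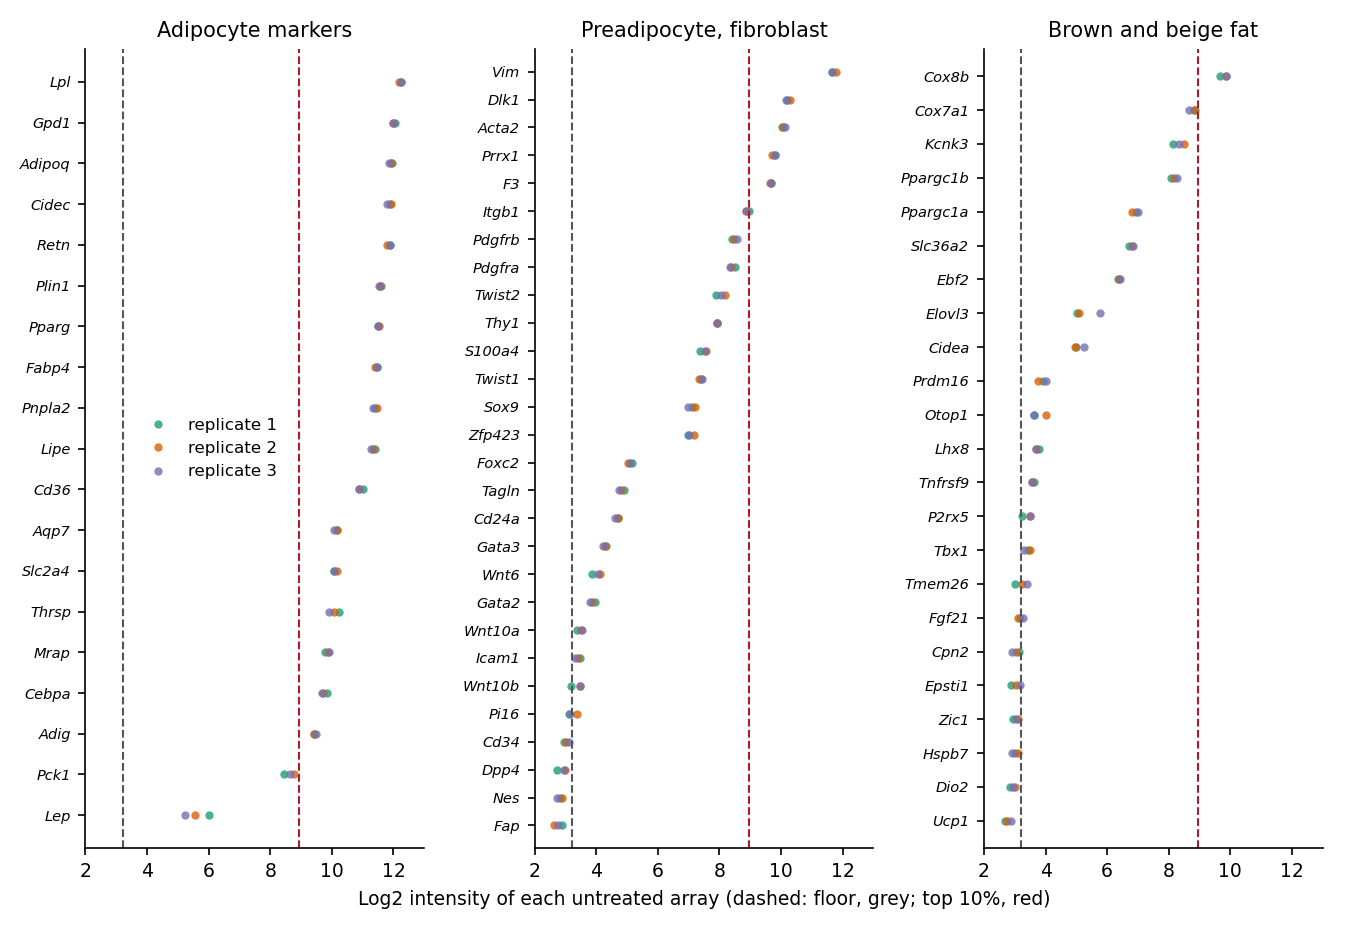
Log2 intensity of each gene in each of the 3 untreated arrays (points, coloured by replicate) for the adipocyte, preadipocyte and fibroblast, and brown and beige fat lists, sorted by mean. Dashed lines mark the floor (3.22) and the top 10% (8.95): 17 of 19 adipocyte markers, 5 of 28 preadipocyte genes and 1 of 23 brown and beige genes lie in the high band.

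Genes of fatty acid synthesis were also mostly high: 12 of 16 (75%) were in the high band, against 9.48% of all genes. Their median was 10.05. Slc25a1, which exports citrate from mitochondria, was at 11.80, 11.82 and 11.81. Fasn, the fatty acid synthase, was at 11.64, 11.64 and 11.57. Acly, which splits citrate, averaged 10.04 and Acaca, the first committed enzyme, 9.98. The desaturases Fads1 and Fads2 averaged 11.72 and 11.52. Outside the band lay Srebf1 at 8.67, Elovl6 at 7.65, Acacb at 7.06 and Mlxipl at 6.31. Srebf1 and Mlxipl encode the factors SREBP1 and ChREBP that drive this pathway, Elovl6 lengthens palmitate, and Acacb makes the malonyl-CoA that restrains oxidation.

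Triglyceride synthesis had 8 of 15 genes (53.3%) in the band and 0 near the floor, against 9.48% and 26.8% of all genes. Both final acyltransferases were high, with Dgat2 at 11.49, 11.53 and 11.58 and Dgat1 at 11.28, 11.30 and 11.28. Agpat2, which makes phosphatidic acid, averaged 11.04, and Lpin1, the phosphatase of the next step, 10.07. The lowest members were Mogat1 at 3.88, Lpin3 at 3.83, Mogat2 at 3.35 and Gpat2 at 3.23.

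Lipolysis genes were high in 7 of 10 cases (70.0%), against 9.48% of all genes, and the median was 10.13. Abhd5, which activates the triglyceride lipase, was at 10.32, 10.31 and 10.37. Pde3b, through which insulin lowers cyclic AMP, was at 9.51, 9.29 and 9.42. G0s2, an inhibitor of the same lipase, was at 8.96, 8.92 and 8.95 and so crossed the threshold in some arrays only. Mgll, the monoglyceride lipase, was the lowest at 6.82. The β-adrenergic receptor genes on the list were not analysed here.

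Genes of the lipid droplet coat were divided by member. Besides Plin1 and Cidec, the perilipins Plin2 at 11.11 ± 0.11 (SD, n = 3) and Plin4 at 10.44, 10.44 and 10.39 were high. Plin3 averaged 8.16, and Plin5, the perilipin of oxidative tissues, 3.34, only just above the floor. Bscl2, the seipin of droplet formation, was at 10.75. Of the Cidec relatives, Cideb averaged 5.62 and Cidea 5.07. In all 5 of the 12 measured droplet genes (41.7%) were high, against 9.48% of all genes.

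Fatty acid uptake showed the same split within families. Of 13 genes, 6 (46.2%) were high and 1 (7.69%) was near the floor, against 9.48% and 26.8% of all genes. Fabp4 and Fabp5, the carriers known from fat, were at 11.45 and 10.71. The intestinal, liver and brain carriers Fabp1 at 3.15, Fabp2 at 2.75, Fabp6 at 2.49 and Fabp7 at 2.71 lay at or close to the floor, and Fabp3, the muscle carrier, at 3.72. The Fabp5 value rests on 1 probe set, as the lowest set of that gene averaged 3.83. Slc27a1, a fatty acid transport protein, was at 10.06, 10.30 and 10.23, while its liver relative Slc27a2 was near the floor at 2.75, 2.85 and 2.86. Acsl1 was not analysed here.

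Insulin signalling and glucose handling had 10 of 20 genes in the band and none near the floor, against 9.48% and 26.8% of all genes. Cav1, which forms the caveolae that are dense in adipocytes, was at 11.61, 11.59 and 11.62. Akt2, the kinase isoform through which insulin recruits the glucose transporter, averaged 11.16, and Akt1 10.32. Insr, the receptor, averaged 9.37, Irs1 10.00 and Irs2 8.05. Among glucose transporters Slc2a1 was at 10.79, 10.91 and 10.85 and Slc2a4 at about 10.10, while Slc2a2, Slc2a5 and Slc2a3, which serve liver, gut and neurons, averaged 3.58, 3.40 and 3.24. Slc2a2 and Slc2a5 lay above the floor in all arrays and Slc2a3 in replicates 1 and 3 only, so none of them was counted near it.

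Fatty acid oxidation genes were high in 12 of 17 cases (70.6%), against 9.48% of all genes. Etfb, which passes electrons from the oxidation enzymes, was at 11.54, 11.60 and 11.62, and the dehydrogenases Hadh and Acadm averaged 11.41 and 11.07. Cpt1a, the liver form of the mitochondrial gatekeeper, averaged 7.95, and Pdk4, which spares glucose when fat is burned, 7.43. Cpt1b was not analysed here.

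Secreted factors lay all along the scale. Of 19 adipokines and related genes, 7 (36.8%) were high and 3 (15.8%) were near the floor, against 9.48% and 26.8% of all genes. Their median was 7.02. Besides Adipoq and Retn, the high members were Nampt at 10.81, the acute-phase genes Hp at 10.45 and Orm1 at 10.32, Angptl4, an inhibitor of lipoprotein lipase, at 9.37, and Apln, the gene of apelin, at 9.18. The inflammatory cytokine genes Tnf and Il6 were near the floor, Tnf at 3.14, 3.08 and 3.11 and Il6 at 2.68, 2.50 and 2.59. The acute-phase gene Saa3 was near it too at 2.91, 2.95 and 2.94. Rbp4 at 3.47 and Sfrp5 at 3.39, both known as secreted products of fat in the animal, lay a little above.

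**Figure D3:**
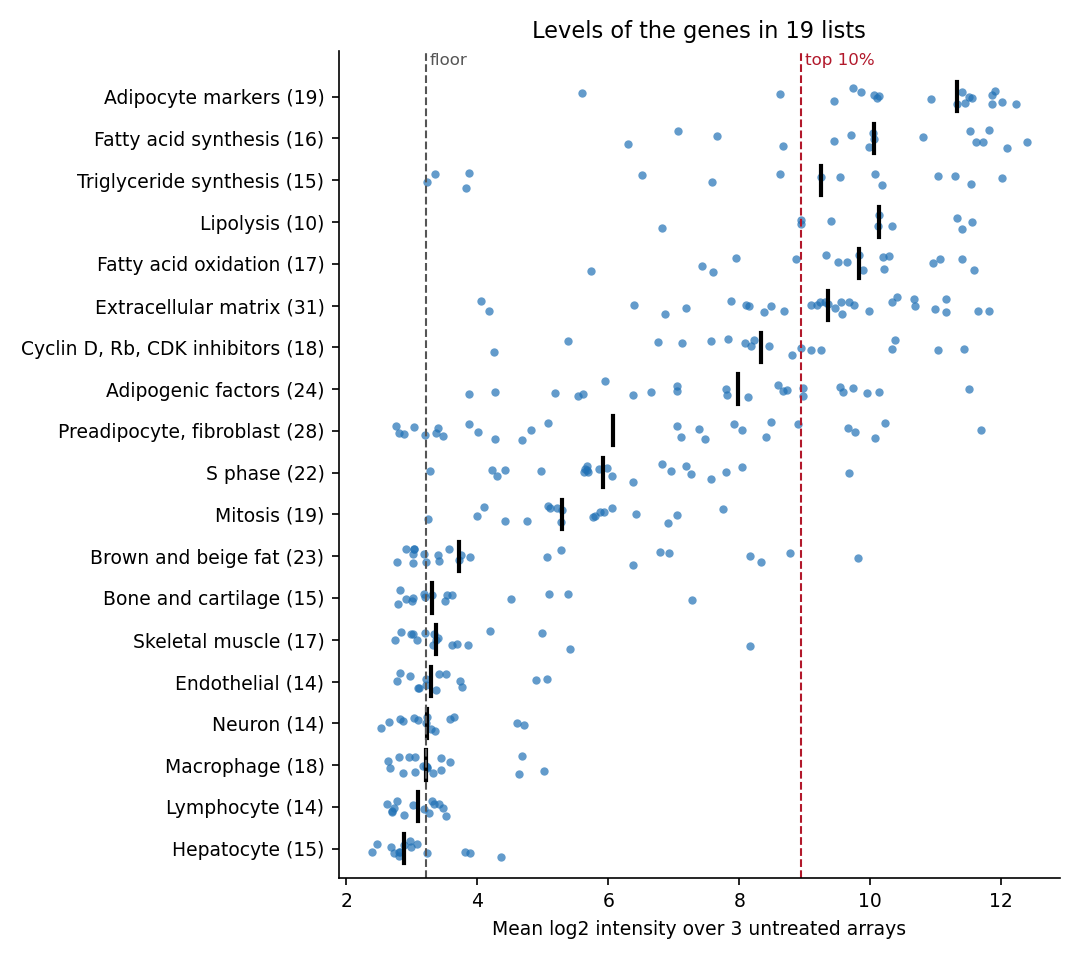
Mean log2 intensity over the 3 untreated arrays of each measured gene (points) in 19 lists, with the list's median as a black bar and its number of genes in brackets. The dashed lines mark the floor (3.22) and the top 10% (8.95): adipocyte and lipid enzyme lists centre above the upper line, cell cycle lists between the lines, and lists of other cell types at the lower line.

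Transcription factors of adipogenesis lay mostly in the upper middle of the scale. Of 24 measured, 7 (29.2%) were high and 0 were near the floor, against 9.48% and 26.8% of all genes. Their median was 7.98. After Pparg, the high members were Nfia at 10.14, Ebf1 at 9.95, Cebpa at 9.73, Tcf7l2 at 9.59, Rxra, the partner of PPARγ on DNA, at 9.54, and Klf9 at 8.98. Nfia and Klf9 rest on 1 of several probe sets, whose lowest averaged 7.70 and 3.95. Cebpb and Cebpd, which act early in differentiation before Cebpa, averaged 7.80 and 5.18. Klf15, which induces Slc2a4, averaged 8.59, Foxo1 8.14 and Klf5, another early factor, 5.96. Gata3 and Gata2, which restrain differentiation, were the lowest at 4.27 and 3.87, both under the median gene in all arrays.

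Among 27 nuclear receptors 4 (14.8%) were high, against 9.48% of all genes, and 7 (25.9%) were near the floor, close to 26.8% of all genes. Their median was 5.69. The high ones were Pparg, Ppard at 10.10, 10.29 and 10.27, Rxra, and Nr1h3, the liver X receptor α that senses oxysterols, at 9.35, 9.53 and 9.55. The glucocorticoid receptor gene Nr3c1, whose ligand dexamethasone was part of the hormone mixture, averaged 8.73. Ppara, the form that dominates in liver, was at 4.69, 4.70 and 4.75, under the median gene. Near the floor were the oestrogen and progesterone receptor genes Esr2 and Pgr, the retinoic acid receptor Rarb, the thyroid hormone receptor Thrb, and Nr1h4, Nr5a2 and Nr1i2, which are known from liver and gut, with means from 2.59 to 3.04.

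Of 23 brown and beige fat genes, 1 (4.35%) was high and 6 (26.1%) were near the floor, against 9.48% and 26.8% of all genes. Under the median gene in all arrays lay 14 (60.9%), against 49.2% of all genes. The list's median was 3.72, below the 4.80 of all genes. The share near the floor was close to that of all genes, and above the 22.3% of genes that are not receptors of the reference set. The difference from all genes also turned with where the floor was set. With the floor at the 90th percentile of receptor genes the share was 8.70% against 20.2%. With a floor from keratin-associated protein and beta-defensin genes it was 60.9% against 50.2%. Ucp1 was at 2.69, 2.76 and 2.89, within the range of the sensory receptors. Dio2, which activates thyroid hormone in brown fat, was at 2.84, 2.99 and 2.93, and Zic1, a marker of the classical brown depot, at 2.93, 3.10 and 3.03. Hspb7, Epsti1 and Cpn2 were the others near the floor. Prdm16, a regulator of brown fat identity, was at 3.90 ± 0.12 (SD, n = 3), and the beige surface markers Tnfrsf9 and Tmem26 averaged 3.58 and 3.22.

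The upper part of the list held mitochondrial and membrane genes. Cox8b, a cytochrome oxidase subunit of muscle and brown fat, was high at 9.68, 9.87 and 9.87. Cox7a1, a similar subunit, was at 8.84, 8.83 and 8.67, just outside the band. Kcnk3, a potassium channel, averaged 8.33 and Ppargc1b, a coactivator of mitochondrial genes, 8.17. Ppargc1a, the coactivator induced by cold, was at 6.94, 6.82 and 7.02, though its lowest probe set averaged 4.51. Cidea was at 4.98, 4.96 and 5.26 and Elovl3 at 5.02, 5.07 and 5.77, both above the median gene, with replicate 3 the highest for each. The 3 arrays of each gene were closer together than the distance to the floor.

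Of 10 known markers of white fat, 3 (30.0%) were high and 1 (10%) near the floor, against 9.48% and 26.8% of all genes. Retn, Agt, the gene of angiotensinogen, at 11.07, and Psat1, of serine synthesis, at 10.65 were the high ones. Hoxc8 and Hoxc9, which mark some white depots, averaged 4.80 and 4.66, and Tcf21 was near the floor at 2.69, 2.87 and 3.06.

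Preadipocyte and fibroblast genes spanned nearly the whole range. Of 28 measured, 5 (17.9%) were high, 4 (14.3%) were near the floor and 12 (42.9%) were under the median gene in all arrays. Of all genes these shares were 9.48%, 26.8% and 49.2%. The list's median was 6.07. Dlk1, which encodes the preadipocyte factor that blocks differentiation, was high at 10.19, 10.29 and 10.18. Vim, the intermediate filament of mesenchymal cells, was at 11.66, 11.78 and 11.64, Acta2, smooth muscle actin, at 10.02, 10.06 and 10.14, and Prrx1, a mesenchymal factor, at 9.80, 9.72 and 9.80. F3, the gene of tissue factor, averaged 9.66. In bulk samples fewer cells of a type and less RNA per cell cannot be told apart, so these levels do not say whether a share of cells had stayed undifferentiated.

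Other progenitor and stromal genes of the list were divided. The platelet-derived growth factor receptors Pdgfra and Pdgfrb averaged 8.41 and 8.49, and Thy1, a surface glycoprotein of fibroblasts, 7.92. Cd34 was near the floor at 2.96, 3.02 and 3.12, Dpp4 at 2.72, 2.99 and 2.96, Nes, the intermediate filament nestin, at 2.82, 2.88 and 2.72, and Fap at 2.90, 2.63 and 2.77. Ly6a was not analysed here. Wnt10b, a ligand that holds preadipocytes back, averaged 3.38, and its relatives Wnt10a and Wnt6 averaged 3.48 and 4.01.

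Extracellular matrix genes were high in 20 of 31 cases (64.5%), against 9.48% of all genes. None was near the floor, against 26.8% of all genes, and the median was 9.36. Bgn, a small proteoglycan, was at 11.86, 11.78 and 11.79, Sparc, a collagen-binding protein, averaged 11.65, and Fn1, fibronectin, 11.16. The 3 collagen VI chains, abundant around fat cells, were Col6a3 at 11.15, Col6a1 at 10.67 and Col6a2 at 10.40. The fibrillar chains Col1a2, Col1a1 and Col3a1 averaged 10.34, 9.75 and 9.32. Nid1, which links laminin to collagen IV, was at 10.98. At the low end were Timp3 at 4.18 and Eln, elastin, at 4.06, both under the median gene.

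Mitotic genes were in the middle of the scale. Of 19 measured, 0 were high, 0 were near the floor and 4 (21.1%) were under the median gene in all arrays. Of all genes these shares were 9.48%, 26.8% and 49.2%. The list's median was 5.29, above the 4.80 of all genes. Cdk1, the mitotic kinase, was the highest at 7.72, 7.69 and 7.86, followed by the cyclins Ccna2 at 7.04 and Ccnb2 at 6.91. Mki67, the proliferation marker, was at 5.72, 5.78 and 5.78, and Plk1 at 5.80, 5.93 and 5.66. Cenpe, Birc5, Cenpf and Ttk, of the kinetochore, the passenger complex and the spindle checkpoint, were the 4 under the median, and Ttk was the lowest at 3.15, 3.20 and 3.40. Top2a averaged 5.93, Kif11 5.28 and Prc1 5.12 on the set used, but their lowest sets averaged 2.23, 2.88 and 2.58.

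Genes of DNA replication looked alike: 1 of 22 (4.55%) was high and 0 were near the floor, against 9.48% and 26.8% of all genes. Their median was 5.93. The high one was Pcna, the replication clamp that also serves repair, at 9.83, 9.61 and 9.59. The helicase genes Mcm2 to Mcm7 that were measured lay between 5.62 for Mcm3 and 7.58 for Mcm7. E2f2 at 3.28 and Mcm10 at 4.23 were the lowest.

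Regulators of cell cycle entry and exit were higher, with 6 of 18 genes (33.3%) in the band, against 9.48% of all genes. Their median was 8.33. Ccnd2, a D-type cyclin, was at 11.47, 11.43 and 11.41 and its kinase Cdk4 at 11.04, 11.06 and 11.01. The inhibitor genes Cdkn2c at 10.40, 10.38 and 10.33, Cdkn1a at 10.09, 10.45 and 10.46 and Cdkn1b at 9.25, 9.20 and 9.31 were high as well. Replicate 1 of Cdkn1a lay below the others by more than they differed. The Cdkn1b value rests on 1 of several sets, the lowest of which averaged 5.66. Rb1, the retinoblastoma gene, averaged 9.09, and Cdkn1c, the lowest of the list, 4.25.

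Markers of other cell types were low. Of 107 genes in 7 lists, 0 were high, 44 (41.1%) were near the floor, and 94 (87.9%) were under the median gene in all arrays, against 26.8% and 49.2% of all genes. Their median was 3.22, equal to the mean floor. Near it lay 10 of 15 hepatocyte (66.7%), 7 of 14 lymphocyte (50%), 6 of 14 neuronal (42.9%) and 7 of 18 macrophage genes (38.9%). Bone and cartilage had 5 of 15 (33.3%) near it, skeletal muscle 5 of 17 (29.4%) and endothelium 4 of 14 (28.6%). These last lists lay close to the 26.8% of all genes. Each list had 80% to 100% of its genes under the median gene in all arrays. Adgre1, the F4/80 antigen of macrophages, was at 2.66, 2.65 and 2.72, and Alb, albumin, at 2.60, 2.77 and 2.67. Pecam1 of endothelium averaged 3.37, and Ptprc, the common leukocyte antigen, 3.21.

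The means of 9 of the 107 lay above the median gene. Des, desmin of muscle, was the highest at 7.99, 8.33 and 8.17, and Alpl, the alkaline phosphatase of bone that other mesenchymal cells also make, was at 7.18, 7.37 and 7.27. Mb, Sox5, Col2a1, Flt1, Cd68, Acta1 and Egfl7 followed between 4.90 and 5.42. The muscle factors Myod1, Myf5 and Myog averaged 2.99, 2.84 and 3.20, and the bone factor Sp7 3.51.

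Broad gene families were then placed on the same scale, with families chosen after the levels had been seen. Of 73 cytosolic ribosomal protein genes 54 (74.0%) were high, against 9.48% of all genes, and 17 were among the first 100 genes. Rplp2, at 4.24, 4.26 and 4.43, and Rps4l, at 3.51, 3.52 and 3.57, lay above the floor but under the median gene in all arrays. The 3 near the floor, Rpl10l, Rpl39l and Rpl3l, are paralogs known from testis or muscle. Of 82 genes of the respiratory chain and ATP synthase 59 (72.0%) were high, and the 1 near the floor, Cox7b2 at 2.37, is likewise a tissue-specific paralog. Proteasome subunits were high in 15 of 39 cases (38.5%), mitochondrial carriers in 13 of 46 (28.3%), collagens in 8 of 42 (19%) and mitochondrial ribosomal proteins in 14 of 74 (18.9%).

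Families of signals and regulators had smaller shares of high genes. None of 36 Hox genes was high and 4 (11.1%) were near the floor, against 9.48% and 26.8% of all genes. Hoxa7 was the highest at 7.71. None of 19 Wnt ligand genes was high either, and 4 (21.1%) were near the floor. The Wnt median was 3.29, below the 4.80 of all genes. Klf9 was the only high member of 17 Krüppel-like factors (5.88%), and 2 (11.8%) were near the floor. The median of these factors, 5.96, was above the 4.80 of all genes. Near the floor lay 21 of 32 interleukins (65.6%), 20 of 33 neurotransmitter and adrenergic receptors (60.6%) and 50 of 88 cytochromes P450 (56.8%). So did 21 of 51 keratins (41.2%) and 11 of 32 chemokines (34.4%), against 26.8% of all genes. The chemokine gene Cxcl12, a product of many stromal cells, was the highest of its family at 7.38.

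**Figure D4:**
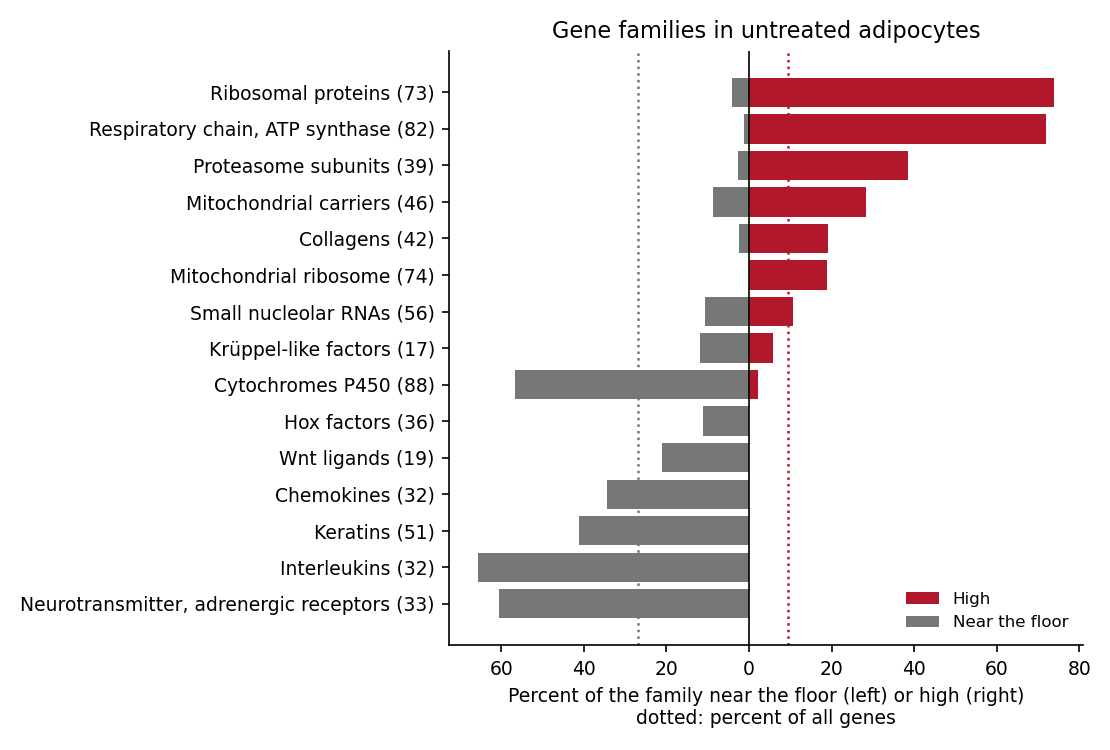
Percent of each gene family that was high (red, right) or near the floor (grey, left) in all 3 untreated arrays, with the number of genes in brackets and dotted lines at the percent of all genes (9.48% high, 26.8% near the floor). Ribosomal proteins (74.0%) and the respiratory chain with ATP synthase (72.0%) have the longest bars to the right, interleukins (65.6%) the longest to the left.

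The 3 arrays were close to each other. Across genes, which are not independent replicates, Pearson's r was 0.9978 for replicates 1 and 2, 0.9980 for 1 and 3 and 0.9984 for 2 and 3. The median gene had an SD of 0.085 over the arrays, and 95% of genes had an SD under 0.20. The median SD was 0.060 for high genes, 0.093 for genes between the bands and 0.079 for genes near the floor. An SD over 0.3 was found for 112 genes. Of all genes, 199 were high in some but not all arrays and 1067 were near the floor in some but not all.

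Among the 12673 genes near the floor in no array, Egr1 had the largest SD, 0.56. Egr1 encodes a factor that serum and growth factors induce within minutes, and it was at 6.93, 7.74 and 7.996, lowest in replicate 1. Next came Mirlet7c-1, 1190007I07Rik, Mir505, Adam4, Mir99a, Tbrg3, Id2, Krt8 and Scarna13, with SDs from 0.50 to 0.43. Of these, 1190007I07Rik and Krt8 were highest in replicate 2 and the others in replicate 1. Id2, an inhibitor of differentiation factors, was at 6.54, 5.77 and 5.75.

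Immediate early genes, the first to respond to a stimulus, shared part of the pattern of Egr1. Of 25 measured, 14 (56.0%) had their lowest value in replicate 1, against 36.5% of all genes. In replicate 3, 14 (56.0%) had their highest, against 31.7% of all genes. This tilt was not particular to immediate early genes. Hepatocyte, lymphocyte, endothelial and neuronal markers each had a larger share lowest in replicate 1. Brown and beige genes had a larger share highest in replicate 3. S phase genes and bone and cartilage genes leaned the other way, with both shares smaller than those of all genes. The floor was also lowest in replicate 1 (3.18) and highest in replicate 3 (3.26), and its part in these counts was not tested. Nr4a1, an orphan receptor induced by many stimuli, was at 6.69, 7.34 and 7.27, and Egr2 at 5.25, 5.59 and 5.99. Fos, by contrast, was low in all arrays at 4.30, 4.18 and 4.48, under the median gene. Myc at 8.65, 8.56 and 8.67 and Jun at 8.44, 8.41 and 8.53 varied little. No member was high, and Nr4a3 was the 1 near the floor at 2.87, 2.82 and 2.78.

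**Figure D5:**
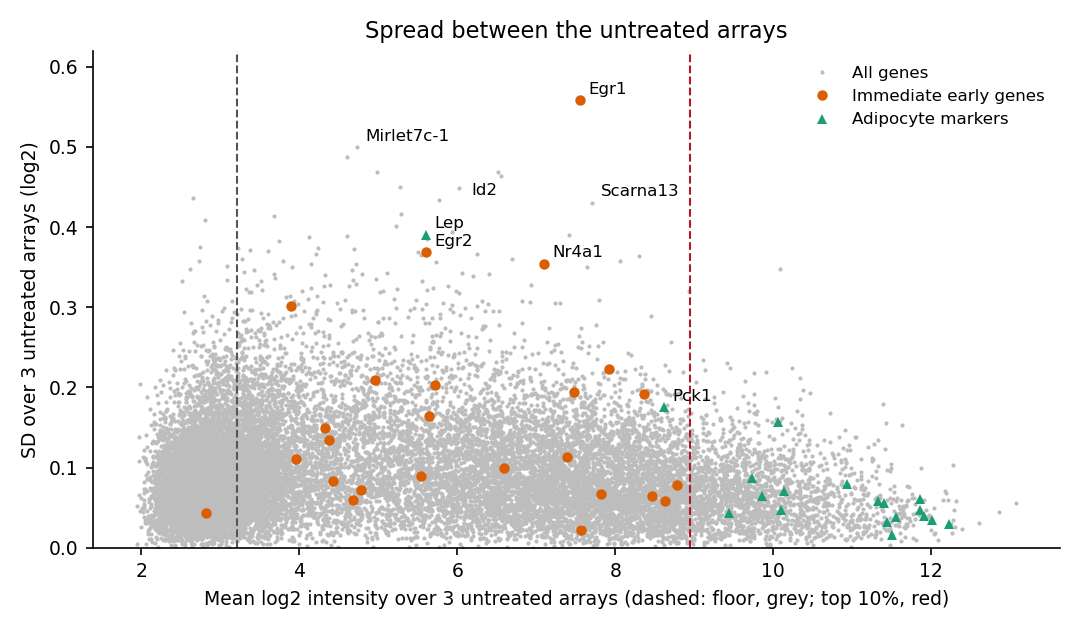
SD of the log2 intensity over the 3 untreated arrays against the mean, for all 18781 genes (grey), the 25 immediate early genes (orange) and the 19 adipocyte markers (green), with the floor (3.22) and the top 10% (8.95) dashed. Egr1 has the largest SD (0.56), and Lep stands at 0.39 while the median over the adipocyte markers is 0.056.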

How the data were processed

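RNA of 3 untreated arrays was analysed, with no comparison of groups and no test. Each deposited value is a log2 intensity of 1 probe set. Per the submitters' processing notes, the authors used Partek and RMA, but versions and roles are not stated. RMA is a method of background correction, normalization over arrays and probe summary. The probe set of a gene was chosen over all 27 arrays. Which arrays were normalised together is not stated. The sources used here do not give the build behind the array annotation.

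The table held 28815 probe sets. The annotation gave 1 symbol for 21153, several for 1867 and none for 5795. Entrez identifiers matched 21123 of the first group to RefSeq genes, with 0 changes of symbol. Of the 18781 genes, 1367 had several probe sets, and in 727 these differed by over 1. Genes reached only by probe sets with several symbols or none were not analysed here.

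The members and gene lists were chosen with earlier results of these data known. The 27 lists held 539 entries, 49 of them not analysed, and 455 distinct genes, and some genes are on several lists. Named are the 30 highest genes, up to 10 highest and 6 lowest of each list, the adipocyte, adipogenic, nuclear receptor, brown and beige, and preadipocyte lists where needed, the 10 most variable genes, and the Fabp, Plin, Cebp, Klf and Slc2a families. Other named genes were chosen after their values were seen. A list of 15 reference genes had 11 high and a median of 11.44. No pair of arrays was identical. The counting of genes in each band was tested on simulated data. Python 3.11.15, pandas 2.3.3, numpy 2.4.6 and matplotlib 3.10.9 were used.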

Additional observations from a re-analysis of the deposited data

How the results depend on the processing

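No paired analysis was possible because the results come from no test and use 1 group. Each of 10 counts was recomputed under 13 alternatives, which gave 130 values, of which 112 stayed within 1.5 times and 18 moved further. Many of the 112 could not move, so their number is no measure of stability. A change of floor cannot alter a count of high genes, nor a change of the high share a count near the floor. Centring an array shifts its thresholds along with its genes. The number of high adipocyte markers stayed between 15 and 18. With high as the top 20% of genes, 3588 genes and 8 preadipocyte genes were high, and with the top 5%, 875 and 3. With the floor at the 90th percentile of receptor genes, 2 brown and beige genes (8.70%) and 26 genes of other cell types (24.3%) were near it, against 20.2% of all genes. At the 99th percentile these were 11 (47.8%) and 80 (74.8%), against 38.2%, with 8 preadipocyte, 1 mitotic and 1 S phase genes. With keratin-associated protein and beta-defensin genes as the floor, 9423 genes (50.2%), 14 brown and beige (60.9%), 13 preadipocyte, 97 other cell type (90.7%), 5 mitotic and 4 S phase genes were near it. Leaving out 1 replicate at a time gave 0 to 1 mitotic genes near the floor (1 without replicate 3, Ttk). With probe sets averaged per gene, 23 of the 30 highest genes were shared, and without 1 replicate 29.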

Other observations

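Genes of the Y chromosome were near the floor in 14 of 15 cases (93.3%), against 26.8% of all genes, with Sry at 4.62 the exception. Xist, the RNA that coats the inactive X chromosome, was near the floor at 2.51. The labels give no sex for the line.

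Of 303 genes annotated as microRNAs, 0 were high and 155 (51.2%) were near the floor, against 9.48% and 26.8% of all genes. Small nucleolar RNA genes were high in 6 of 56 cases (10.7%), close to the 9.48% of all genes.

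Probe sets without a usable gene name also carried signal. Of the 5795 with no symbol, 170 (2.93%) were high in all 3 arrays and 47.8% were near the floor, and the highest averaged 12.92. Of the 1867 with several symbols, 228 (12.2%) were high, and the highest averaged 12.71.

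Over genes split into 10 groups by level, the median CpG ratio of the 250 bases before the start was 0.15 in the lowest group, 0.50 in the fifth and 0.77 in the highest. The starts of mitotic genes had a median ratio of 0.79, although 0 of 19 mitotic genes were high.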
